A study of Mus musculus with 20 samples.

Results

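The genes described here encode the secreted and membrane-bound metalloproteinases that cut the extracellular matrix, and the inhibitors that hold them in check. They were taken by symbol from the deposited TPM table, as all genes named Mmp, Adamts or Timp followed by a number, which gave 46 of the 45777 genes listed. Of these, 23 were matrix metalloproteinases (MMPs), 19 were ADAMTS proteases and 4 were tissue inhibitors of metalloproteinases (TIMPs). Tests were made on the 34 that exceeded 0 TPM in each of the 20 libraries, and 12 were not tested, of which 4 were listed at 0 throughout.

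RNA of the uterus was sequenced in wild-type pregnant B6D2F1 mice aged 8 to 12 weeks, with 5 mice in each of 4 groups and 1 horn per mouse, taken at 18:00 on day 3.5 (the plug was day 0.5). Control mice were pregnant and received no agent. Mice of the implantation failure (IF) group received 3 mg/kg RU486, an antagonist of the progesterone and glucocorticoid receptors, under the skin at 9:00 of day 3.5. Mice of the PBMC group received the same RU486 and, on day 1.5, 50000 peripheral blood mononuclear cells in each uterine horn, which came from non-pregnant mice and had been cultured for 24 h. The PBMC-hCG group differed from the PBMC group in that 5 IU/mL human chorionic gonadotropin (hCG) had been in the culture. All 3 groups other than the control thus carried RU486, mice given medium without cells were not analysed here, and an effect of the injection itself cannot be told apart from an effect of the cells. Whole-horn RNA holds myometrium, stroma, epithelium, vessels and any embryo in the lumen together.

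MMPs and ADAMTS proteases are made as inactive precursors and are opened by furin-like convertases, by plasmin or by one another. MMPs cut collagens, elastin, laminins and fibronectin, while several ADAMTS proteases cut the large proteoglycans such as versican, and TIMPs block the active site of most of them. In the uterus, these enzymes are known for the remodelling of the matrix at ovulation, implantation, decidualization and parturition, and Adamts1 is best known as a progesterone-responsive gene of the ovulating follicle.

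Before the results, 2 libraries stood apart, control mouse 2 by its correlations and IF mouse 3 because it deviated with control mouse 2. Over all tested genes, control mouse 2 had a median correlation of 0.963 with the other control mice, while that of every other library lay between 0.98 and 0.99, and the lowest of these was IF mouse 3. By this measure IF mouse 3 (0.98) was level with PBMC mouse 5 (0.981), control mouse 5 (0.982) and IF mouse 5 (0.983). The deviations of these 2 libraries, control mouse 2 and IF mouse 3, from their group means correlated with each other at 0.57 across genes. Those of PBMC mouse 5 reached 0.497 with a PBMC-hCG mouse. The pair was chosen after the data were seen, and leaving it out raised the genes called between PBMC-hCG and IF from 13.6% to 35.8%. Where leaving out both mice changed a call described below between IF and control or between PBMC-hCG and IF, or the number of members called, that fit is given beside it. The sequencing depth behind TPM values is unknown, so no counting error is given. Some members overlap other genes in the genome, among them Mmp23 with Mib2, Mmp19 with Tmem198b, Mmp28 with 1700020L24Rik, and Timp1, Timp2, Timp3 and Timp4 with Syn1, Cep295nl, Syn3 and Syn2, and how reads there were divided is not given in the sources used here.

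In TPM, which is scaled to transcript length, the family was dominated by a few genes. Mmp2, the gelatinase that is activated at the cell surface, was listed at 469 to 589.9 TPM over the 20 mice, and Mmp14, the membrane-anchored collagenase that activates it, at 226 to 362 TPM. These 2 genes made up 64.9% to 73.9% of all MMP transcripts in a library. Timp2 (237 to 343 TPM) and Timp3 (131 to 203 TPM) followed, then Adamts1 (63.9 to 305 TPM). The ranges of Mmp2 and Mmp14 did not meet, whereas those of Timp3 and Adamts1 overlapped. At the other end, 9 tested genes had a mean between 0.25 and 3.85 TPM, from Adamts20 to Adamts3. Summed TPM of the 19 ADAMTS genes was 338 ± 59.5 in the control, 528 ± 83.6 in the IF, 448 ± 58.5 in the PBMC and 382 ± 64.9 in the PBMC-hCG group (mean ± SD, n = 5 each). Most of the gap between control and IF lay in Adamts1, whose own means were 87.6 and 231.5 TPM, and the median log2 difference of the 18 ADAMTS genes tested was -0.02. The sums of the 23 MMPs had means of 1094, 1154, 1225 and 1202 TPM in the same order, and those of the 4 TIMPs 499, 507, 511 and 523 TPM. In tissue RNA of this kind, fewer cells of a type and less RNA per cell cannot be told apart.

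**Figure D1:**
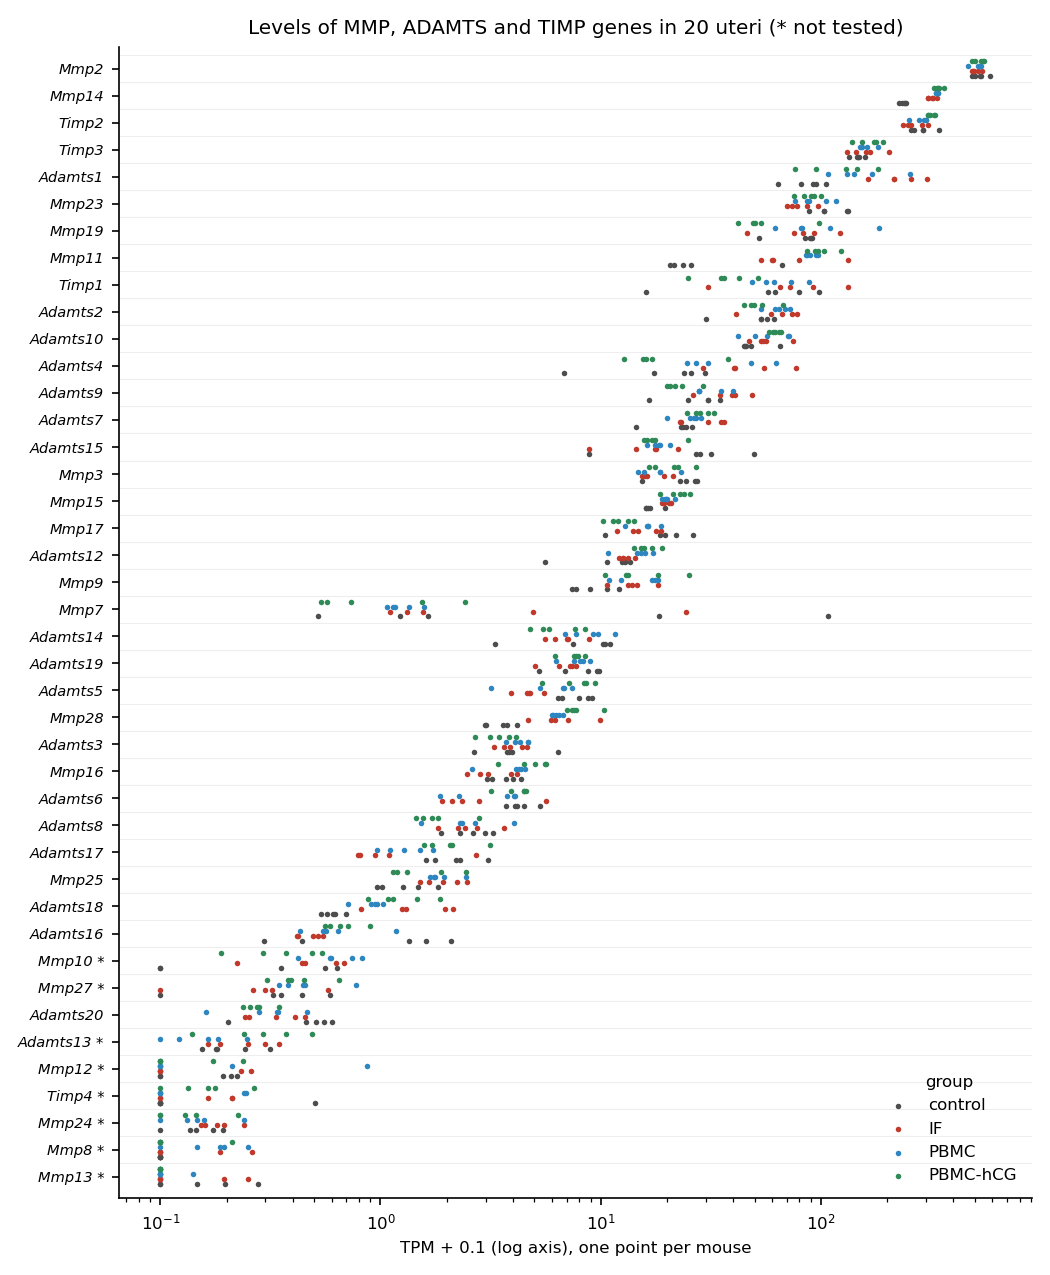
TPM + 0.1 of the 42 members above 0 in at least 1 library, on a log axis, with 1 point per mouse and genes in order of their mean. Mmp2, Mmp14, Timp2 and Timp3 lie above 100 TPM in every mouse, Mmp7 spreads from 0.419 to 108 TPM, and the genes marked with an asterisk were at 0 in at least 1 library and were not tested.

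The secreted collagenases were all but absent. Mmp1a and Mmp1b were listed at 0 in every library, Mmp8 did not exceed 0.160 TPM and Mmp13 did not exceed 0.177 TPM. These genes belong to a run of 10 MMP genes side by side on chromosome 9 (GRCm38, 7272514 to 7699585, 427 kb), in which only Mmp3 and Mmp7 were above 0 TPM in every mouse, whereas 11 of the 13 MMP genes elsewhere were. Mmp3, the stromelysin that cuts proteoglycans and fibronectin, was listed at 14.7 to 27.3 TPM, although its neighbour Mmp10 did not exceed 0.720 TPM.

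**Figure D2:**
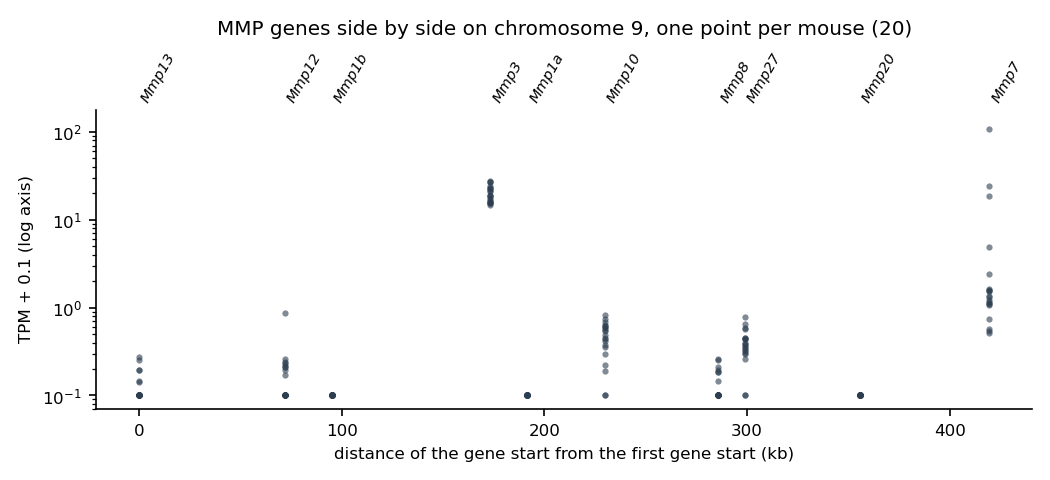
TPM + 0.1 (log axis) of the 10 neighbouring MMP genes on chromosome 9 against the distance of their starts from that of Mmp13 in kb, with 1 point for each of the 20 mice. Mmp3 stands at 14.7 to 27.3 TPM between genes listed at or near 0, and Mmp7 at the far end spreads from 0.419 to 108 TPM.

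The starts of these genes also read differently. RefSeq windows of the 250 bases before the start (GRCm38.p6) were on hand for 32 of the 46 members, which included the whole run on chromosome 9. The motifs were read on both strands as TATAAA for a TATA box, TGANTCA for the site of AP-1 factors (Fos and Jun) and GGGCGG for the GC box of Sp1 factors. A TATA box lay in the windows of 7 of the 10 genes of the run and 2 of the 22 other members (Adamts1 and Mmp21), against 12.4% of all 32851 windows. An AP-1 site lay in 8 of the 10 and none of the 22, against 6.75% of all windows, and a GC box in none of the 10 and 16 of the 22, against 32.7%. The median GC content was 40.2% for windows of the run and 63.6% for the others. Letters for the full palindromic estrogen response element (0.0639% of all windows), the palindromic progesterone and glucocorticoid response element (0.387%) and the cyclic AMP response element (TGACGTCA, 1.55%) were in no member's window, which says nothing about sites elsewhere. A match describes the letters and does not show that a factor binds there. The windows of Mmp3, Mmp10 and Mmp7 are shown because these neighbours share the motifs but not the level of RNA, and those of Adamts1, Mmp11, Mmp14 and Mmp28 because these genes were higher after RU486 (5′ to 3′, TATA boxes, AP-1 sites and GC boxes in capitals). That of Adamts4 was not on hand.
Mmp3, chr9:7445572-7445821, plus strand: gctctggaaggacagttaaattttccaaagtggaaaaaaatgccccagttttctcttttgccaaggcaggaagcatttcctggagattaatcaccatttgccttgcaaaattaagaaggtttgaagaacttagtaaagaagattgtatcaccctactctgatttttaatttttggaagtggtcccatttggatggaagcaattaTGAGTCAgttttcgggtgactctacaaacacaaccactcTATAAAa
Mmp10, chr9:7502092-7502341, plus strand: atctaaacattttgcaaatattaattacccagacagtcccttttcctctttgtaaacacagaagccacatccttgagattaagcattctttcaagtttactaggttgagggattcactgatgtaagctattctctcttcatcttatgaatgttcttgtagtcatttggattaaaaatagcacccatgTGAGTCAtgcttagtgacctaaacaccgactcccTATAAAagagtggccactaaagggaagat
Mmp7, chr9:7691840-7692089, plus strand: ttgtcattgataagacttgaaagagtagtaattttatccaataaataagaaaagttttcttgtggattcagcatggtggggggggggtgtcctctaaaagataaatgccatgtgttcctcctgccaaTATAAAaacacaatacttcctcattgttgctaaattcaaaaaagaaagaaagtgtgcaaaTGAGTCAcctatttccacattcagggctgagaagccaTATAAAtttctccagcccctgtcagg
Adamts1, chr16:85803114-85803363, minus strand: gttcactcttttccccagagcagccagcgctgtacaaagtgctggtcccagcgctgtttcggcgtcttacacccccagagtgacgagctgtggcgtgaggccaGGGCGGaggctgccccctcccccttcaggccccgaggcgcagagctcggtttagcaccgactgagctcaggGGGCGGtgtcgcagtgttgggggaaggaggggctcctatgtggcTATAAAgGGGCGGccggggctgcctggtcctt
Mmp11, chr10:75932503-75932752, minus strand: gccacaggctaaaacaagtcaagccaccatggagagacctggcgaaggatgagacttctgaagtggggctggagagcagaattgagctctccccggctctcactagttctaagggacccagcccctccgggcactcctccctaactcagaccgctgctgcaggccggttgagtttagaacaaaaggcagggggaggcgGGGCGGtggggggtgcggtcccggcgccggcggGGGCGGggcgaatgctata
Mmp14, chr14:54431348-54431597, plus strand: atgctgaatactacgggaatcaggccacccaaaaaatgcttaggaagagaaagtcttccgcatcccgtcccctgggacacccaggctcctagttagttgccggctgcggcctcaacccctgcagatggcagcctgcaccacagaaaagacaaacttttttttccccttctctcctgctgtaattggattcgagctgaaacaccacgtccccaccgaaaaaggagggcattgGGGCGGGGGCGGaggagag
Mmp28, chr11:83463041-83463290, minus strand: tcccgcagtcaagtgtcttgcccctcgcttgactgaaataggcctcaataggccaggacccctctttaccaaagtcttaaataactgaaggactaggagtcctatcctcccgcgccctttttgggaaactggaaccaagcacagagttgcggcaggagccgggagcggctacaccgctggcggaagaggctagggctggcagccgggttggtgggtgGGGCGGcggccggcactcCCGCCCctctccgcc
Of the 32 members with a window, Adamts1 alone had both a TATA box and GC boxes.

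The first comparison asked what RU486 did to these genes in the pregnant uterus. In the IF group, the proteoglycan-cutting Adamts1 and Adamts4, the stromelysin Mmp11 and the weakly expressed Adamts18 were at least 2-fold higher than in the control group, Mmp28 and Mmp14 rose by less, and Adamts5, Adamts17 and Mmp23 fell. Of the 34 members tested, 10 passed at an adjusted p under 0.05 in limma (29.4%), against 21.9% of all 18706 genes tested. Of these, 7 were higher (13.4% of all genes were) and 3 were lower (8.53% of all genes were). The median log2 difference of the 34 was -0.01 and its median size 0.41, while those of all genes tested were 0.02 and 0.20. At the study's criteria of a fold of at least 2 and a raw p under 0.05, 4 members were higher and none was lower, against 4.03% of all genes. In 5 members, the IF and control mice did not overlap (12.8% of all genes). Without the 2 libraries that stood apart, 15 members passed, of which 8 were higher and 7 lower, and 9 of them were among the 10, against 24.6% of all genes in that fit (13% higher and 11.7% lower). The 6 others were Adamts9 and Mmp25, which were higher, and Adamts6, Adamts15, Mmp3 and Mmp17, which were lower, while Mmp15 no longer passed.

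**Figure D3:**
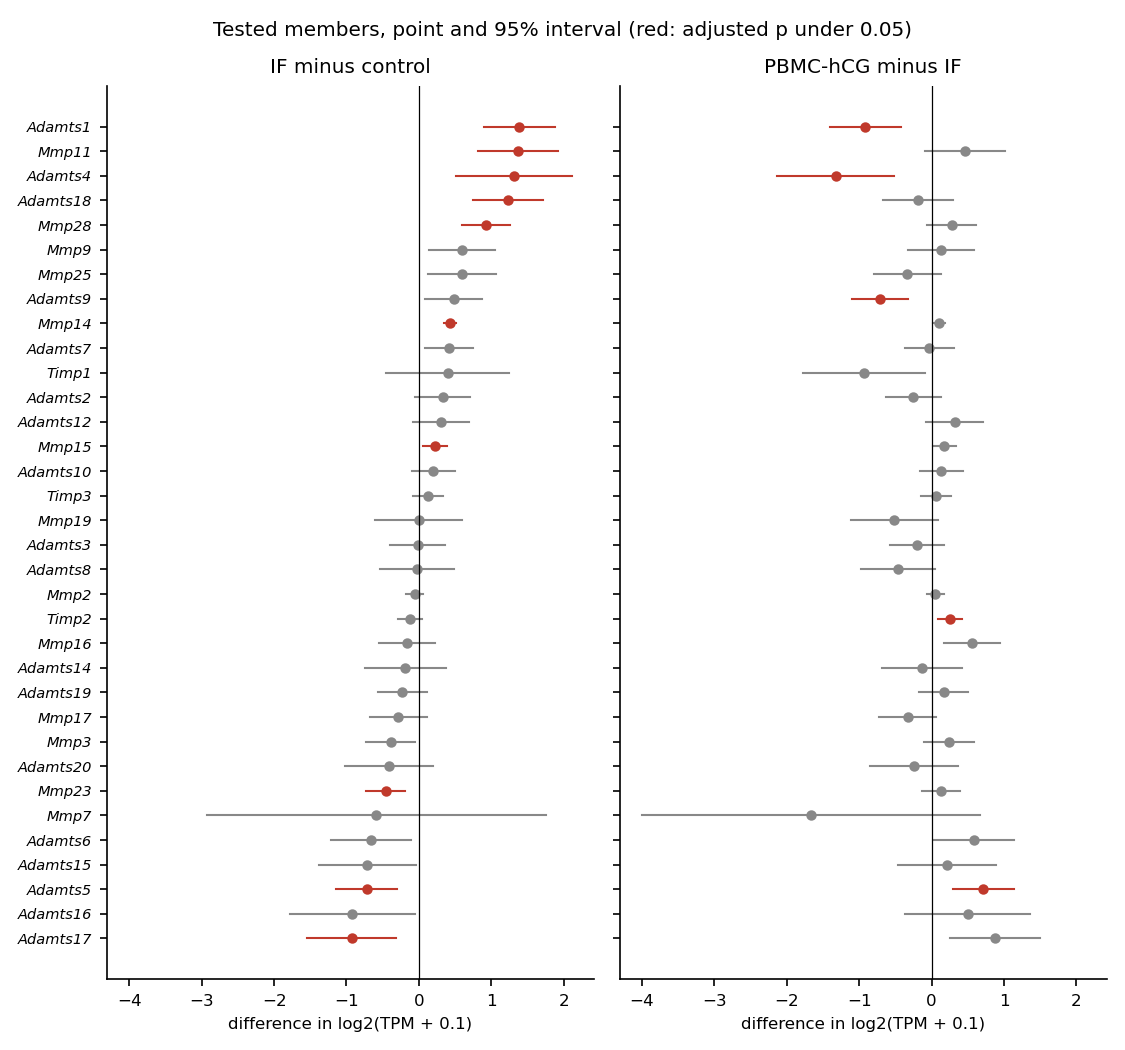
Difference in log2(TPM + 0.1) with its 95% confidence interval for the 34 tested members, in order of the left panel: IF minus control (left) and PBMC-hCG minus IF (right). Red marks an adjusted p under 0.05, which 10 members reached on the left and 5 on the right, and both panels contain the same IF mice.

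The hyalectanases, the ADAMTS proteases that cut aggrecan and versican, moved in both directions. Of the 7 tested, 2 rose in IF (Adamts1 and Adamts4), 1 fell (Adamts5) and 4 did not pass. Of all genes tested, 13.4% rose and 8.53% fell. Without the 2 libraries, Adamts9 was also higher and Adamts15 also lower, the latter by a log2 difference of -0.89 ± 0.18 (adjusted p = 0.00161, limma). Adamts1, on chromosome 16, was listed at 92.4, 63.9, 81.2, 95.4 and 105 TPM in the control mice, at 215, 216, 164, 257 and 305 TPM in the IF mice, at 108, 142, 172, 132 and 254 TPM in the PBMC mice and at 182, 94.8, 76.6, 130.2 and 146 TPM in the PBMC-hCG mice. Every IF mouse lay above every control mouse, every PBMC mouse did too, and the PBMC-hCG mice reached down into the control range. The log2 difference between IF and control was 1.39 ± 0.24 (SE, adjusted p = 0.000339, limma), a 2.62-fold increase. Between PBMC-hCG and IF it was -0.91 ± 0.24 (adjusted p = 0.0304), and between PBMC-hCG and control 0.48 (95% interval -0.02 to 0.97, adjusted p = 0.133).

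Adamts4 is one of the main aggrecanases. It was listed at 23.7, 6.70, 17.4, 25.7 and 29.6 TPM in the control mice, 40.4, 55.2, 29.2, 40.5 and 77.2 TPM in the IF mice, 24.6, 30.6, 48.0, 27.0 and 62.7 TPM in the PBMC mice and 37.96, 15.95, 12.6, 15.4 and 17.1 TPM in the PBMC-hCG mice. IF mouse 3 fell just inside the control range, and 4 of the 5 PBMC-hCG mice lay below every IF mouse, with PBMC-hCG mouse 1 as the exception. The log2 difference was 1.31 ± 0.38 between IF and control (adjusted p = 0.0191, limma) and -1.33 ± 0.38 between PBMC-hCG and IF (adjusted p = 0.0367), so that PBMC-hCG and control differed by -0.01 (95% interval -0.82 to 0.79). The call between IF and control was lost in 2 of 28 other fits. These were the fit without IF mouse 5, where the log2 difference was 0.95 (adjusted p = 0.0574, limma), and that of only the 2 groups. The call between PBMC-hCG and IF was lost in 8 of 28, and so were those of Adamts1, Adamts5 and Adamts9.

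Adamts9, which cuts versican and aggrecan, was listed at 30.5, 16.5, 24.8, 30.7 and 34.7 TPM in the control mice, 34.8, 40.6, 26.1, 39.4 and 48.6 TPM in the IF mice, 27.9, 27.9, 35.3, 27.9 and 39.8 TPM in the PBMC mice and 28.9, 20.6, 21.7, 19.99 and 23.3 TPM in the PBMC-hCG mice. Of the IF mice, 4 lay above all control mice, IF mouse 1 only barely, and IF mouse 3 lay inside the control range. Of the PBMC-hCG mice, 4 of 5 lay below all IF mice. The log2 difference between PBMC-hCG and IF was -0.71 ± 0.18 (adjusted p = 0.0307, limma), and its difference of 0.48 between IF and control did not pass (adjusted p = 0.0717). In the fit without control mouse 2 and IF mouse 3, the latter was 0.43 ± 0.14 and passed (adjusted p = 0.034).

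Adamts5 is the other main aggrecanase and lies next to Adamts1 on chromosome 16. Its levels were 7.91, 6.54, 9.05, 8.70 and 6.31 TPM in the control mice, 4.69, 4.61, 5.44, 4.51 and 3.83 TPM in the IF mice, 7.31, 6.69, 5.20, 6.62 and 3.09 TPM in the PBMC mice and 5.33, 9.35, 8.31, 7.11 and 8.52 TPM in the PBMC-hCG mice. All IF mice lay below all control mice, and 4 of 5 PBMC-hCG mice lay above all IF mice. The neighbouring genes thus differed in opposite directions: the log2 difference of Adamts5 was -0.72 ± 0.20 between IF and control (adjusted p = 0.0143, limma) and 0.71 ± 0.20 between PBMC-hCG and IF (adjusted p = 0.0344). The level of Adamts5 was also far lower, with a mean of 6.46 TPM over all mice against 152 TPM for Adamts1.

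Among the ADAMTS genes outside the hyalectanases, 2 changed in IF, both at low levels (21.9% of all genes tested passed). Adamts18 was listed at 0.595, 0.438, 0.474, 0.506 and 0.524 TPM in the control mice, 0.718, 1.16, 2.04, 1.21 and 1.87 TPM in the IF mice, 0.848, 0.922, 0.806, 0.867 and 0.613 TPM in the PBMC mice and 1.76, 0.978, 1.04, 1.36 and 0.775 TPM in the PBMC-hCG mice. No mouse of any RU486 group overlapped with the control group. The log2 difference was 1.23 ± 0.23 for IF (adjusted p = 0.000849, limma), 0.58 ± 0.23 for PBMC (adjusted p = 0.0878) and 1.03 ± 0.23 for PBMC-hCG (adjusted p = 0.00249), each against control. Adamts17, a protease linked to fibrillin in connective tissue, was listed at 2.19, 2.99, 1.66, 2.10 and 1.50 TPM in the control mice and at 0.703, 0.689, 2.62, 0.842 and 0.988 TPM in the IF mice. In the PBMC mice it was listed at 0.867, 1.64, 1.003, 1.41 and 1.18 TPM, and in the PBMC-hCG mice at 2.01, 1.97, 1.62, 3.06 and 1.47 TPM. IF mouse 3 was the only one of its group inside the control range. The log2 difference between IF and control was -0.93 ± 0.29 (adjusted p = 0.0302, limma), and -1.11 ± 0.22 (adjusted p = 0.00148) without the 2 libraries that stood apart, and the call was lost in 9 of 28 other fits (adjusted p up to 0.0954). Between PBMC-hCG and IF it was 0.88 ± 0.29 (adjusted p = 0.0528), and 1.20 ± 0.21 (adjusted p = 0.00403) without the 2 libraries. The procollagen proteinases Adamts2, Adamts3 and Adamts14, which trim fibrillar collagens, and Adamts7 and Adamts12, which cut cartilage oligomeric matrix protein, had no call between IF and control or between PBMC-hCG and IF. Without the 2 libraries, Adamts2 was lower (log2 difference -0.40 ± 0.11, adjusted p = 0.0122, limma) and Adamts12 higher (0.33 ± 0.12, adjusted p = 0.0445) in PBMC-hCG than in IF. Adamts13, which cuts von Willebrand factor, did not exceed 0.391 TPM and was not tested.

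**Figure D4:**
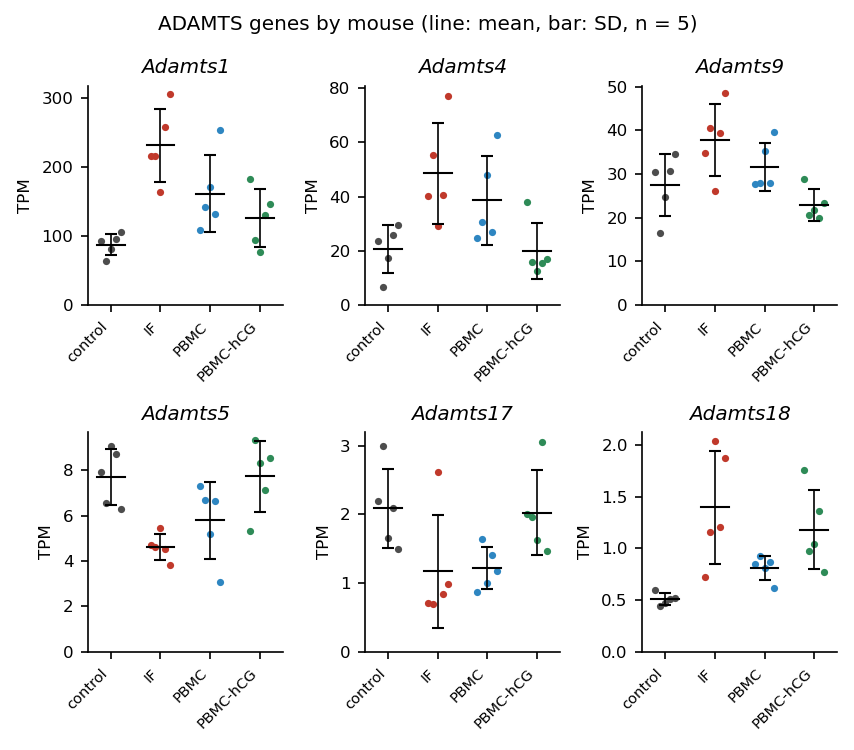
TPM of 6 ADAMTS genes by group, with 1 point per mouse, the mean as a line and the SD as a bar (n = 5 per group, axes from 0). Adamts1 and Adamts4 are highest in the IF group and Adamts5 is lowest there, while IF mouse 3 stands apart for Adamts17 at 2.62 TPM.

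Of the 13 MMPs tested, 4 rose in IF, 1 fell and 8 did not pass (of all genes tested, 13.4% rose and 8.53% fell). Mmp11, a stromelysin made by stromal cells next to epithelium, had the greatest log2 difference among them. It was listed at 21.5, 66.6, 25.7, 23.5 and 20.5 TPM in the control mice, 79.2, 60.6, 132, 53.6 and 59.7 TPM in the IF mice, 97.5, 88.9, 86.7, 85.9 and 94.97 TPM in the PBMC mice and 103, 96.8, 94.4, 124 and 86.4 TPM in the PBMC-hCG mice. Of the control mice, 4 lay below all treated mice, and control mouse 2 lay within the IF range. The log2 difference from control was 1.36 ± 0.27 for IF (adjusted p = 0.00108, limma), 1.68 ± 0.27 for PBMC (adjusted p = 0.000192) and 1.83 ± 0.27 for PBMC-hCG (adjusted p = 6.27e-05). Between PBMC-hCG and IF it was 0.46 (95% interval -0.09 to 1.02, adjusted p = 0.219). That last difference was 0.68 ± 0.11 (adjusted p = 0.00403) without the 2 libraries that stood apart.

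The membrane-type MMPs are anchored at the cell surface. Mmp14 was listed at 233, 239, 245, 240.4 and 226 TPM in the control mice, 308, 320.0, 306, 322 and 338 TPM in the IF mice, 335, 338, 335, 341 and 340.2 TPM in the PBMC mice and 362, 337, 326, 341 and 344 TPM in the PBMC-hCG mice. Values were close within each group, the control mice lay below all treated mice without overlap, and control mouse 2 did not stand out. The log2 difference from control was 0.43 ± 0.04 for IF (adjusted p = 3.44e-07, limma), 0.51 ± 0.04 for PBMC (adjusted p = 4.67e-08) and 0.53 ± 0.04 for PBMC-hCG (adjusted p = 3.67e-08). Its substrate Mmp2 did not pass in any comparison (IF minus control -0.06, 95% interval -0.18 to 0.06, log2). Mmp15 was listed at 16.3, 15.99, 19.4, 16.7 and 15.9 TPM in the control mice, 18.9, 19.1, 20.3, 20.7 and 19.3 TPM in the IF mice, 19.6, 21.7, 19.96, 19.7 and 18.9 TPM in the PBMC mice and 21.2, 25.3, 23.8, 22.8 and 18.5 TPM in the PBMC-hCG mice. Only control mouse 3 reached into the treated range. The log2 difference was 0.22 ± 0.08 between IF and control (adjusted p = 0.0433, limma), a call that was lost in 17 of 28 other fits, among them the one without both libraries (adjusted p = 0.115), and 0.40 ± 0.08 between PBMC-hCG and control (adjusted p = 0.000791).

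Mmp28, an MMP of epithelia, was listed at 2.90, 4.05, 3.64, 3.49 and 2.87 TPM in the control mice, 5.88, 6.11, 9.81, 4.57 and 6.98 TPM in the IF mice, 6.19, 6.36, 5.98, 6.63 and 5.90 TPM in the PBMC mice and 10.2, 7.505, 7.32, 7.66 and 6.92 TPM in the PBMC-hCG mice. All 15 treated mice lay above all control mice, and all PBMC-hCG mice above all PBMC mice. The log2 difference from control was 0.92 ± 0.16 for IF (adjusted p = 0.000376, limma), 0.87 ± 0.16 for PBMC (adjusted p = 0.000756) and 1.20 ± 0.16 for PBMC-hCG (adjusted p = 2.95e-05). Between PBMC-hCG and IF it was 0.28 (adjusted p = 0.221), and 0.42 ± 0.13 (adjusted p = 0.0193) without the 2 libraries that stood apart. Mmp23, a short MMP known from ovary and heart, was listed at 104, 104, 133, 131 and 88.5 TPM in the control mice, 78.1, 70.1, 73.6, 97.1 and 86.6 TPM in the IF mice, 88.1, 117, 105, 86.7 and 76.5 TPM in the PBMC mice and 90.4, 92.8, 100.3, 75.6 and 83.4 TPM in the PBMC-hCG mice. The groups overlapped at control mouse 5 and IF mouse 4. The log2 difference was -0.46 ± 0.13 between IF and control (adjusted p = 0.0142, limma) and 0.13 (95% interval -0.14 to 0.40) between PBMC-hCG and IF. Mmp9, the other gelatinase, ranged from 7.32 to 12.0 TPM in the control and from 10.6 to 18.2 TPM in the IF group, a log2 difference of 0.60 ± 0.22 that did not pass (adjusted p = 0.0547).

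Of the TIMPs, none of the 3 tested passed between IF and control (21.9% of all genes did). Timp1, the inhibitor that is induced with inflammation, was listed at 79.4, 16.01, 61.9, 57.4 and 98.3 TPM in the control mice, 64.9, 92.4, 30.6, 72.1 and 134 TPM in the IF mice, 56.2, 60.9, 73.1, 48.6 and 88.0 TPM in the PBMC mice and 51.8, 35.2, 36.3, 24.7 and 42.4 TPM in the PBMC-hCG mice. The groups overlapped, and the lowest value of all belonged to control mouse 2. The log2 difference was 0.40 (95% interval -0.45 to 1.25) between IF and control, which turned to -0.04 without control mouse 2. Between PBMC-hCG and IF it was -0.93 ± 0.41 (adjusted p = 0.112, limma), and -1.23 ± 0.24 (adjusted p = 0.00421) without the 2 libraries that stood apart.

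Timp2, which both inhibits MMPs and helps MMP14 to activate MMP2, was listed at 266, 343, 292, 291 and 258 TPM in the control mice, 289, 248, 306, 256 and 237 TPM in the IF mice, 301, 295, 280.4, 300.1 and 251 TPM in the PBMC mice and 314, 327, 306, 331 and 307 TPM in the PBMC-hCG mice. The PBMC-hCG mice lay above all IF mice, if barely, since IF mouse 3 came next to the lowest of them. The log2 difference between these groups was 0.25 ± 0.08 (adjusted p = 0.0437, limma), a call that was lost in 12 of 28 other fits. Timp3, the matrix-bound TIMP that also inhibits ADAMTS proteases, was listed at 146, 158, 134, 147 and 148 TPM in the control mice, 160.2, 144, 203, 131 and 168 TPM in the IF mice, 153, 154, 162, 151 and 181 TPM in the PBMC mice and 154, 178, 174, 191 and 139 TPM in the PBMC-hCG mice. The groups overlapped, with a log2 difference of 0.12 (95% interval -0.09 to 0.33) between IF and control and 0.06 (-0.15 to 0.27) between PBMC-hCG and IF. Timp4 was listed at 0 in 10 of the 20 libraries and was not tested. Its highest value was 0.406 TPM in control mouse 2, in which the adipose markers Adipoq, Plin1 and Fabp4 summed to 298 TPM, against 2.33 to 59.5 TPM in the other 19 mice. The part of adipose RNA in it was not tested.

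**Figure D5:**
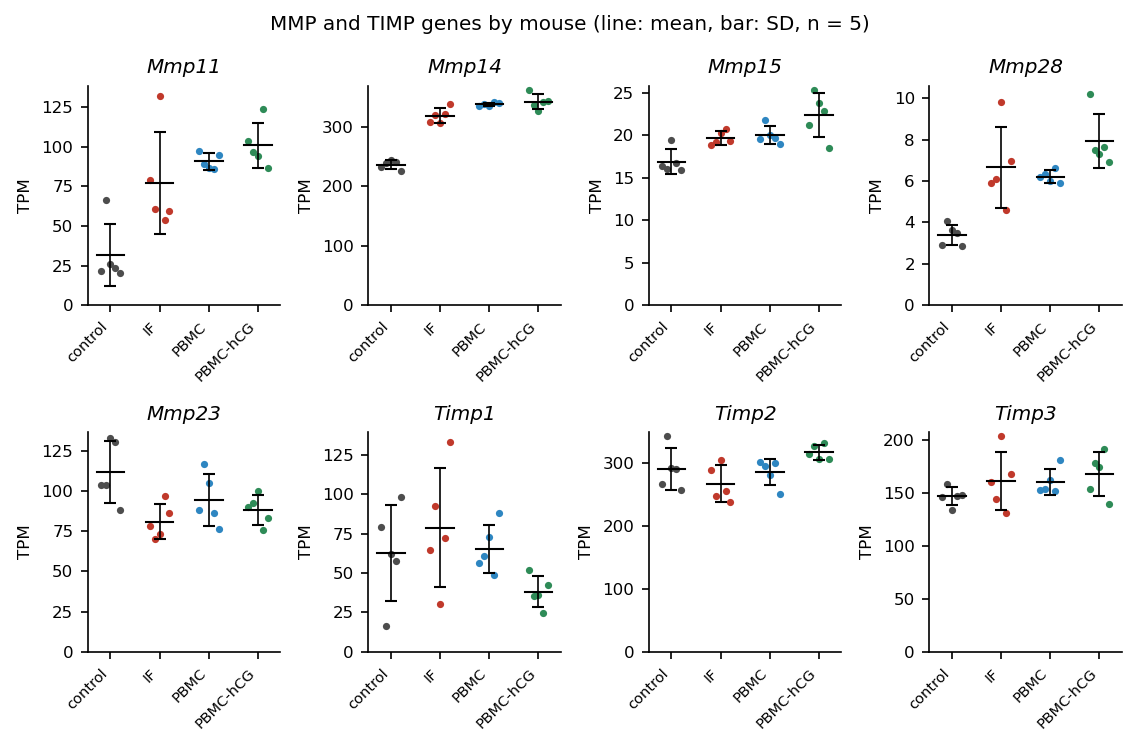
TPM of 5 MMP and 3 TIMP genes by group, with 1 point per mouse, the mean as a line and the SD as a bar (n = 5 per group, axes from 0). Mmp14 and Mmp28 separate the 5 control mice from all treated mice, control mouse 2 stands apart for Mmp11 at 66.6 TPM and for Timp1 at 16.01 TPM, and Timp2 is highest in the PBMC-hCG group.

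The second comparison asked which of these genes differed when PBMCs cultured with hCG had been given before RU486. Between PBMC-hCG and IF, 5 of the 34 members passed (14.7%), against 13.6% of all genes tested. Adamts5 and Timp2 were higher (7.61% of all genes were) and Adamts1, Adamts4 and Adamts9 were lower (5.99% of all genes were), so that 4 of the 5 were hyalectanases. Adamts4 alone met the study's criteria (2.31% of all genes did), and 2 members did not overlap (7.24% of all genes), Timp2 and the weakly expressed Adamts16. All 5 calls were lost when IF mouse 2, 4 or 5, or PBMC-hCG mouse 2, 3, 4 or 5, was left out, and without IF mouse 5 the adjusted p of Adamts1 was 0.104, that of Adamts4 0.121, that of Adamts5 0.110, that of Adamts9 0.105 and that of Timp2 0.140. Over all genes, no call or at most 34 remained in those fits. Without the 2 libraries that stood apart, 15 members passed, 8 higher and 7 lower, with these 5 among them, against 35.8% of all genes in that fit (20.5% higher and 15.2% lower). Of the 15, 5 were MMPs, of which Mmp11, Mmp16 and Mmp28 were higher and Mmp17 and Mmp19 lower. The 5 genes called between PBMC-hCG and IF and the 10 called between IF and control were measured against the same IF mice, so their signs in the 2 comparisons are not independent.

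In the PBMC group, the members passed neither against IF nor against PBMC-hCG. Between PBMC and IF, no member had an adjusted p under 0.05 in limma, nor did any of the 18706 genes (0%), none met the study's criteria (0.438% of all genes did), and 3 members had a raw p under 0.05 against 6.79% of all genes: Adamts1 (log2 difference -0.55 ± 0.24), Adamts18 (-0.65 ± 0.23) and Mmp14 (0.08 ± 0.04). Between PBMC-hCG and PBMC, where the difference was the hCG in the culture, no member passed either, against 0.0107% of all genes, none met the study's criteria (0.893% of all genes did), and 7 had a raw p under 0.05 against 16.2% of all genes. The log2 differences of the hyalectanases were -0.36 (95% interval -0.86 to 0.14) for Adamts1, -0.98 (-1.78 to -0.18) for Adamts4, -0.47 (-0.85 to -0.08) for Adamts9 and 0.45 (0.03 to 0.86) for Adamts5. Values of Timp2 and Mmp28 did not overlap between these 2 groups, both higher with hCG (3.46% of all genes did not overlap).

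Against the control group, PBMC mice had 6 members higher and none lower (17.6%, against 19.5% of all genes, 12.8% higher and 6.7% lower), and PBMC-hCG mice had 7 higher and 1 lower (23.5%, against 31.8% of all genes, 20.2% higher and 11.6% lower). The 2 groups did not overlap with the control group in 5 members each, against 12.7% and 18.3% of all genes. Mmp9, Mmp11, Mmp14, Mmp15 and Mmp28 were higher in both. Adamts1 was higher in the PBMC mice by 0.84 ± 0.24 on the log2 scale (adjusted p = 0.0172, limma), and Adamts12 and Adamts18 were higher and Mmp17 was lower in the PBMC-hCG mice. Without the 2 libraries that stood apart, 6 members were higher and 5 lower in PBMC (15.8% and 11.7% of all genes were), and 9 were higher and 8 lower in PBMC-hCG (24.4% and 18.1% of all genes were). Of the 7 hyalectanases, none passed between PBMC-hCG and control with all mice, and the log2 differences ran from the 0.48 of Adamts1 through -0.01 of Adamts4 and -0.01 of Adamts5 to -0.23 of Adamts9 among those named here. Without the 2 libraries, 3 of them were lower in PBMC-hCG than in the control: Adamts9 by a log2 difference of -0.40 ± 0.14 (adjusted p = 0.024, limma), Adamts15 by -0.88 ± 0.17 (adjusted p = 0.000565) and Adamts20 by -0.93 ± 0.24 (adjusted p = 0.00537). Of the 10 members called between IF and control, 4 had the opposite sign between PBMC-hCG and PBMC, 2 groups that share no mouse with the first comparison. That is 40.0%, against 57.6% of the 4104 genes called.

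Mmp7, the matrilysin of glandular epithelium, is given because of its spread and was chosen after its values were seen. It was listed at 1.13, 108, 0.419, 1.54 and 18.4 TPM in the control mice, 1.21, 1.01, 24.4, 1.46 and 4.83 TPM in the IF mice, 1.48, 1.06, 0.975, 1.03 and 1.25 TPM in the PBMC mice and 2.33, 0.635, 0.439, 1.44 and 0.474 TPM in the PBMC-hCG mice. A few mice of the first 2 groups stood far above the rest, and none of the comparisons passed (IF minus control -0.59, 95% interval -2.93 to 1.75, log2). The summed gland markers Foxa2, Spink1 and Prss29 in the same mice were 1360.0, 19190.0, 1181, 1434 and 6525 TPM in the control group and 2534, 2493, 10510.0, 2295 and 5270.0 TPM in the IF group. The 4 mice with the most Mmp7 were thus the 4 with the highest gland sums of these groups, but PBMC-hCG mouse 4 had a gland sum of 8914 TPM with Mmp7 at 1.44 TPM. These sums were almost wholly Spink1 and Prss29, and Foxa2 did not follow them. Foxa2 was at 15.4, 9.03, 13.5, 12.4 and 8.72 TPM in the control mice, with mice 2 and 5 the lowest. In the IF mice it was at 7.01, 6.62, 6.44, 4.87 and 6.10 TPM, below every control mouse. The part of glandular RNA in the level of Mmp7 was not tested.

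Markers of other cell types also moved with the groups. Of all genes tested, 13.4% were higher and 8.53% lower in IF than in the control. All 4 endothelial markers rose in IF, with sums of 247 to 333 TPM in the control and 385 to 413 TPM in the IF mice, and 4 of 5 epithelial markers rose (3 without the 2 libraries that stood apart), with sums of 485 to 859 and 722 to 930.5 TPM. Of 5 stromal markers, Hoxa10 and Hoxa11 fell, with sums of 1859 to 2262 and 1770.0 to 2289 TPM, and 1 of 5 myometrial markers fell (3 without the 2 libraries), with sums of 3449 to 7583 and 3517 to 4896 TPM. Of 4 B and plasma cell markers 2 were tested and 1 fell, with sums of 73.6 to 241 and 3.95 to 159 TPM, and of 4 ovary and oviduct markers, with Cyp19a1 at 0 throughout, 3 were tested and 1 fell, with sums of 22.6 to 29.9 and 12.7 to 27.3 TPM. Of 6 macrophage markers, 2 rose (none without the 2 libraries), with sums of 513.5 to 638 and 560.2 to 627 TPM. Of 5 red cell markers, 2 were lower in PBMC-hCG than in IF (5.99% of all genes were), and 4 without the 2 libraries (15.2% of all genes were), with sums of 342 to 878 TPM against 640.0 to 1802 TPM. In the fit without the 2 libraries, 4 of 5 myometrial markers were also lower in PBMC-hCG than in IF. Higher were 4 of 5 stromal, 3 of 5 epithelial, 1 of 4 endothelial and 1 of 6 macrophage markers (20.5% of all genes were). Myometrial sums were 3101 to 3949 TPM in the PBMC-hCG and 3517 to 4896 TPM in the IF mice. The 7 neutrophil markers summed to 6.58 to 9.49 TPM in the control, 8.03 to 29.5 in the IF, 19.3 to 30.1 in the PBMC and 11.6 to 15.9 TPM in the PBMC-hCG mice. These sums lay in S100a8, S100a9, Csf3r and Ly6g, as Ngp, Camp and Elane did not exceed 0.218 TPM in any mouse. The genes of the sums did not move together. For S100a8 and S100a9, all PBMC mice lay above all PBMC-hCG mice. Ly6g instead ran from 0.241 to 0.878 TPM in the PBMC and from 0.702 to 1.26 TPM in the PBMC-hCG mice. Csf3r was between 2.75 and 5.28 TPM in every mouse. The part of these cell types in the differences above was not tested.

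Precursors of these proteases are opened by convertases and by plasmin. Of 10 genes listed for these steps, 8 were tested, 5 rose in IF and 1 fell (75.0% of those tested, against 21.9% of all genes), and between PBMC-hCG and IF 4 were lower and none higher (50.0%, against 13.6% of all genes). Without the 2 libraries that stood apart, 5 of the 8 were lower in PBMC-hCG than in IF (15.2% of all genes were). The counts between IF and control were the same in that fit. No gene of any kind was called between PBMC-hCG and IF without IF mouse 5 or without PBMC-hCG mouse 3. Plau, the urokinase that makes plasmin, was listed at 20.4, 24.2, 20.3, 24.1 and 33.8 TPM in the control mice, 56.6, 78.6, 55.5, 54.8 and 95.8 TPM in the IF mice, 29.2, 32.1, 50.1, 43.0 and 70.3 TPM in the PBMC mice and 38.9, 24.3, 24.3, 27.6 and 26.4 TPM in the PBMC-hCG mice. The IF mice lay above all control and all PBMC-hCG mice. The log2 difference was 1.46 ± 0.22 between IF and control (adjusted p = 0.000109, limma) and -1.25 ± 0.22 between PBMC-hCG and IF (adjusted p = 0.0218). Plat, the tissue-type activator, rose by 0.70 ± 0.17 on the log2 scale in IF (adjusted p = 0.00585), and so did Serpine2, an inhibitor of both activators, by 1.26 ± 0.31 (adjusted p = 0.00663). Of the convertases that open the precursors, Pcsk5 was at 36.7 to 118 TPM in the control and 10.3 to 26.5 TPM in the IF mice, a log2 difference of -1.97 ± 0.26 (adjusted p = 2.69e-05), whereas Pcsk6 rose by 0.99 ± 0.34 (adjusted p = 0.0463). The groups overlapped for Pcsk6, with control mice 2 and 5 at 17.8 and 18.7 TPM and IF mouse 1 at 10.5 TPM. Furin, the other convertase listed, was at 53.8 to 61.1 TPM in the control, 74.1 to 91.0 TPM in the IF and 64.3 to 73.7 TPM in the PBMC-hCG mice.

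Among other inhibitors and inducers, 1 of 5 tested rose and 1 fell in IF (40.0%, against 21.9% of all genes). Without the 2 libraries that stood apart, 1 was higher and 2 were lower in IF (13% and 11.7% of all genes were). In that fit, 2 were higher and 1 was lower in PBMC-hCG than in IF (20.5% and 15.2% of all genes were). The broad protease trap A2m rose by 1.69 ± 0.39 on the log2 scale (adjusted p = 0.00421, limma) and the testican Spock2 had a log2 difference of -0.91 ± 0.14 (adjusted p = 0.000103). Reck, a membrane-anchored inhibitor of MMPs, differed by 0.25 ± 0.12 on the log2 scale (adjusted p = 0.15), and the MMP inducer Bsg by -0.04 (95% interval -0.15 to 0.06). Of the 6 ADAMTS-like genes, which lack the protease domain, Adamtsl4 fell in IF, with a log2 difference of -0.84 ± 0.15 (adjusted p = 0.000615), and Adamtsl2 was lower in PBMC-hCG than in IF, with a log2 difference of -0.95 ± 0.30 (adjusted p = 0.0459). The fit without the 2 libraries had 2 of the 6 lower in IF, and 2 higher and 1 lower in PBMC-hCG than in IF. Of 11 ADAM genes, 2 rose in IF (18.2%, against 21.9% of all genes) and none passed between PBMC-hCG and IF, while without the 2 libraries that stood apart 3 were higher in IF, and 1 was higher and 1 lower in PBMC-hCG than in IF.

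Of the substrates, 5 of 16 collagen and glycoprotein genes rose in IF and 1 fell, and 3 of 7 tested proteoglycans and other ADAMTS substrates rose (37.5% and 42.9% called, against 21.9% of all genes). Leaving out the 2 libraries, 6 of the 16 were higher and 3 lower, and 2 of the 7 were higher and 1 lower (13% and 11.7% of all genes were). Between PBMC-hCG and IF, that fit had 2 of the 16 higher and 8 lower, and 1 of the 7 higher and none lower. Of all genes in it, 20.5% were higher and 15.2% lower. The glycoprotein tenascin-C (Tnc) went from 7.03 to 29.4 TPM in the control to 30.6 to 254 TPM in the IF mice, a log2 difference of 2.54 ± 0.60 (adjusted p = 0.00515, limma), and it was lower in PBMC-hCG than in IF, by a log2 difference of -2.02 ± 0.60 (adjusted p = 0.0393). Elastin (Eln) also rose in IF, by 0.98 ± 0.25 on the log2 scale (adjusted p = 0.00949), and its log2 difference between PBMC-hCG and IF was -0.82 ± 0.25 (adjusted p = 0.0421). Fibronectin (Fn1), decorin (Dcn), lumican (Lum) and von Willebrand factor (Vwf) rose by 0.98 ± 0.20, 0.84 ± 0.09, 0.88 ± 0.20 and 0.64 ± 0.18 on the log2 scale, and none of these 4 passed between PBMC-hCG and IF. The call of Vwf was lost without the 2 libraries (0.36 ± 0.14, adjusted p = 0.0709), and that fit had Dcn higher in PBMC-hCG than in IF (0.26 ± 0.08, adjusted p = 0.0172). Versican (Vcan), the substrate shared by the hyalectanases, was listed at 38.4, 5.04, 27.9, 30.5 and 40.4 TPM in the control and 16.2, 21.7, 10.3, 20.8 and 17.3 TPM in the IF mice. Control mouse 2 lay below every IF mouse, and the 4 other control mice lay above them all. With all mice, the log2 difference of -0.47 (95% interval -1.29 to 0.35) did not pass, and without the 2 libraries that stood apart Vcan was lower in IF, with a log2 difference of -0.84 ± 0.14 (adjusted p = 0.000263, limma).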

How the data were processed

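RNA-seq libraries of 20 mouse uteri, 5 per group, were used, grouped and numbered by their labels, and the study's methods gave the doses and times. The authors prepared stranded mRNA libraries from RNA of integrity number 9 or above, trimmed reads with Trimmomatic, used HISAT2 for mapping to mm10 and StringTie for assembly, and deposited 1 TPM value per gene and library. TPM is scaled to a fixed total and keeps no depth, so no count test and no interval for counting error could be used. Whether counting used strand is not given in the sources used here. The labels name no batch or date.

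Members and gene lists were chosen with earlier results of these data known. The 18706 genes that no library lists at 0 were compared as log2(TPM + 0.1) by limma 3.58.1 (R 4.3.3), using a variance trend, all 4 groups in 1 fit and Benjamini-Hochberg adjustment over all tested genes within each of 6 comparisons. The pseudocount understates differences at low TPM. The study's criteria (fold of at least 2, raw p under 0.05) were counted as well. Its exact test on counts normalized by TMM needs counts. P-values measure the spread between mice, and no columns were identical.

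Values by mouse were given for members with a mean of at least 1 TPM in a group and an adjusted p under 0.05 for IF against control or for PBMC-hCG against IF, or meeting the study's criteria, and for the TIMPs, Adamts1 and Adamts4. Genes of the other lists were named at a fold of at least 1.5 and an adjusted p under 0.05 in these comparisons, at most 4 per list by size of fold, with Reck, Bsg, Plau, Plat and Vcan in any case. Furin was added afterwards as the other convertase of its list. On simulated data for IF versus control with 18706 genes, 80 of 100 genes changed by a log2 of 1 and 96 of 100 changed by a log2 of 2 were recovered, with 5 false calls. The simulated noise was normal and independent for each gene and library, and only 200 genes were changed. It held no deviations shared across genes and no outlying mice, so it cannot give the error rate of the real calls. All 46 members matched a RefSeq position by gene identifier. Alternatives were other pseudocounts (0.01 and 1), filters, quantile normalization, fits of 2 groups, a replicate block and each mouse left out. Tables and figures were made with pandas 2.3.3 and matplotlib 3.10.9.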

Additional observations from a re-analysis of the deposited data

Results flagged for a closer look

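Of 136 groups of 5 values (34 members in 4 groups), 15 held 1 mouse whose gap to the nearest of the others passed Dixon's critical value at 95%, where chance alone flags about 1 in 20 groups. Control mouse 2 accounted for 7 of them. It had the lowest value of its group for Adamts2 (30.12 TPM, others 53.31 to 61.26), Adamts7 (14.31 TPM), Adamts12 (5.462 TPM), Adamts20 (0.1025 TPM) and Mmp19 (52.28 TPM, others 84.84 to 90.88) and the highest for Adamts10 (64.95 TPM) and Mmp11 (66.6 TPM, others 20.49 to 25.71). PBMC-hCG mouse 1 accounted for 4, with the highest value of its group for Adamts4 (37.96 TPM, others 12.64 to 17.06), Adamts15 (24.71 TPM), Mmp19 (97.85 TPM, others 42.11 to 53.67) and Mmp28 (10.22 TPM). PBMC mouse 5 had the lowest Mmp2 (468.6 TPM) and Mmp16 (2.502 TPM) of its group. IF mouse 3 had the highest Adamts17 of its group (2.623 TPM, others 0.6894 to 0.9883) and control mouse 3 the highest Mmp15 (19.42 TPM).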

How the results depend on the processing

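Across 28 other fits, the log2 differences of the named members kept their direction and their side of the threshold in 692 cases, lost the call in 72, gained one in 16 and turned sign in 2. The signs that turned were those of Timp1 between IF and control, 0.40 with all mice, -0.037 without control mouse 2 and 0.699 without IF mouse 3, and of Timp3 in PBMC-hCG against IF, 0.06 with all mice, -0.01 without IF mouse 4 and 0.147 without IF mouse 3. In IF versus control, the calls of Adamts1, Adamts5, Adamts18, Mmp11, Mmp14, Mmp23 and Mmp28 held in every fit run. That of Mmp15 was lost in 17 (adjusted p up to 0.115), that of Adamts17 in 9 (up to 0.0954) and that of Adamts4 in 2 (without IF mouse 5, and with only the 2 groups fitted).

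Without the filter on low values, 30695 genes were tested and the 5 members called between PBMC-hCG and IF fell to 0 (2.65% of all genes were called). Without control mouse 2 and IF mouse 3, an alternative chosen after seeing the data, 15 members were called between PBMC-hCG and IF, 11 between PBMC and control and 17 between PBMC-hCG and control, and 4 met the study's criteria between PBMC-hCG and IF. Of all genes in that fit, 35.8%, 27.5% and 42.6% were called in the same order, and 691 of 18706 met the criteria. With each mouse left out in turn, the members called ranged from 7 to 15 between IF and control (15 without control mouse 2), from 0 to 11 between PBMC-hCG and IF (9 without control mouse 2, 11 without IF mouse 3, 0 without IF mouse 2, 4 or 5 or PBMC-hCG mouse 2, 3, 4 or 5), from 4 to 10 between PBMC and control and from 8 to 15 between PBMC-hCG and control (10 and 15 without control mouse 2). They stayed at 0 between PBMC and IF and between PBMC-hCG and PBMC. The share of all genes called moved as well. It ran from 17.8% to 26.8% between IF and control and from 0% to 27.1% between PBMC-hCG and IF. Between PBMC and control it ran from 15.8% to 24.7%, and between PBMC-hCG and control from 25.4% to 40.2%. The highest shares came without control mouse 2, or for PBMC-hCG against IF without IF mouse 3 (21.8% without control mouse 2). Members meeting the study's criteria ranged from 4 to 6 between IF and control, from 1 to 4 between PBMC-hCG and IF (4 without IF mouse 3, 3 without PBMC-hCG mouse 1), were 0 between PBMC and IF throughout, and ranged from 0 to 1 between PBMC-hCG and PBMC (1 without PBMC mouse 1, 2 or 4 or PBMC-hCG mouse 1). Of the 18706 genes, 679 to 896, 268 to 680, 62 to 148 and 105 to 288 met these criteria in the same order of comparisons. Beyond the number of genes tested and of mice, the cause was not tested.

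Mice with the same replicate number did not in general deviate together (8 of 30 pairs of libraries correlated above 0.1 over all genes, range -0.247 to 0.457, and 7 correlated best with their own number). Number 5 of the control, IF and PBMC groups did, at 0.272 to 0.457. As not every pair was above 0.1 and the labels tie no number to a shared litter or day, the numbers were not taken to pair the mice. With the replicate block, 11 members were called in IF against control and 6 in PBMC-hCG against IF (22.2% and 17.2% of all genes were). The counts of the other comparisons were as before. Depth is unknown and limits what can be said of members near 0 TPM.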
